A study of Homo sapiens with 4 samples.

Results

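Bystander AGACH adenosines are adenosines that sit in an AGAC[A, C or U] context inside a synthetic RNA but are not the adenosine for which that RNA was designed. They were found by letters alone, as every adenosine of a 141-nt sequence with a full 5-mer around it, other than the selected one at position 51, with A at -2, G at -1, C at +1 and A, C or U at +2. This gave 1694 sites in 1300 of the 3488 human sequences of 2 design classes, out of 556809 positions in all. Of these, 574 were AGACA, 614 AGACC and 506 AGACU. One site lay in 966 of the sequences and 2 or more in the others. One design class, here the m6A class, was built around adenosines that carried m6A in HEK293T cells (a line of human embryonic kidney origin) and held 1042 sites. The other, the unmodified class, was built around adenosines without it in those cells and held 652.

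The question was whether the METTL3–METTL14 complex by itself prefers some sequences when it writes m6A. RNA transcribed in vitro from 11999 designs was incubated with the recombinant complex (the methylated group, 2 libraries) or without it (the unmethylated group, 2 libraries), with no cells and no other protein of the pathway in either group. Both groups were then immunoprecipitated with the same m6A antibody by miCLIP2, in which the antibody is crosslinked to RNA and reverse transcription stops beside it, so that stops counted per nucleotide mark where it bound. Experiments were done in duplicate, and nothing further says that replicates were separate reactions, so p-values measure only the spread between these libraries, which may be technical.

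METTL3 is the catalytic subunit that transfers a methyl group to the N6 position of adenosine, and METTL14 is its partner in binding RNA. The complex acts in the DRACH consensus (any base but C, then a purine, then AC, then any base but G), in which GGAC is the best known core. AGACH fills the same consensus with A in place of the first G. Signal is given as CPM, a library's counts scaled to a fixed total. Antibody crosslinks also occur on unmethylated RNA, so the unmethylated libraries give the background of each site, and a count is not the share of molecules methylated.

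The sites on which the results turn are printed here as the 21 nt of the deposited designs around the adenosine, 5′ to 3′ with T for U, with the AGAC[A, C or T] motif in capitals. Each name gives the gene, irrespective of strand, and the deposited chromosome and coordinate of the selected adenosine of that design. The first 10 are the largest rises among sites with at least 10 unmethylated counts, and the last 6 are, by motif, the sites of highest signal among those with an adjusted p over 0.5.
CLSTN3, chromosome 12, 7158154: gaacacagAGACCaagaggga
XPC, chromosome 3, 14158067: aagaaagaAGACTtggaggta
MC1R, chromosome 16, 89920446: tcctaaagAGACAttttccgc
URB1, chromosome 21, 32362011: aaagcaagAGACCaaacagga
ARGLU1, chromosome 13, 106559465: gaaagtagAGACAgtccatgg
PACC1, chromosome 1, 212365080: aatagaagAGACTaatggata
MZT2B, chromosome 2, 130182058: tccctgatAGACTgcattggt
RUVBL2, chromosome 19, 49009793: gaccctcaAGACCacagagat
GLRX5, chromosome 14, 95544049: gaaaagaaAGACCaagactcc
DFFA, chromosome 1, 10472410: tgcctcgaAGACCtgaggagc
NICOL1, chromosome 4, 2042751: cctgcggaAGACAgcctgcag
BRSK2, chromosome 11, 1453529: cccagaacAGACAgccgccga
OGFR, chromosome 20, 62813379: cccatcggAGACCccaggccc
BCKDK, chromosome 16, 31111991: cacgggtgAGACCctgccagg
CIC, chromosome 19, 42273459: gctcgtggAGACTcacggcca
SGTA, chromosome 19, 2767666: gctccctcAGACTctgccgga
The base after the capitals, at +3, was C in 4 of the last 6 sequences and in 0 of the first 10, against 28.1% of all members. It was C in 31.1% of all 379 tested members with no call.

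Summed over all 1694 sites, signal at the bystander adenosine was 4488 and 4500 CPM in the methylated libraries, against 2321 and 2557 CPM in the unmethylated libraries. The groups did not overlap, with means of 4494 ± 7.87 CPM and 2439 ± 167 CPM (SD, n = 2 each), a ratio of 1.84. With 2 libraries against 2, the smallest p that the exact two-sided permutation test can give is 0.333, and this difference gave it. The rise was at the adenosine itself. At the 20 other nucleotides within 10 nt on either side, the same ratio lay between 0.907 and 1.16. It was 1.05 at the G before the adenosine and 1.11 at the C after it.

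**Figure D1:**
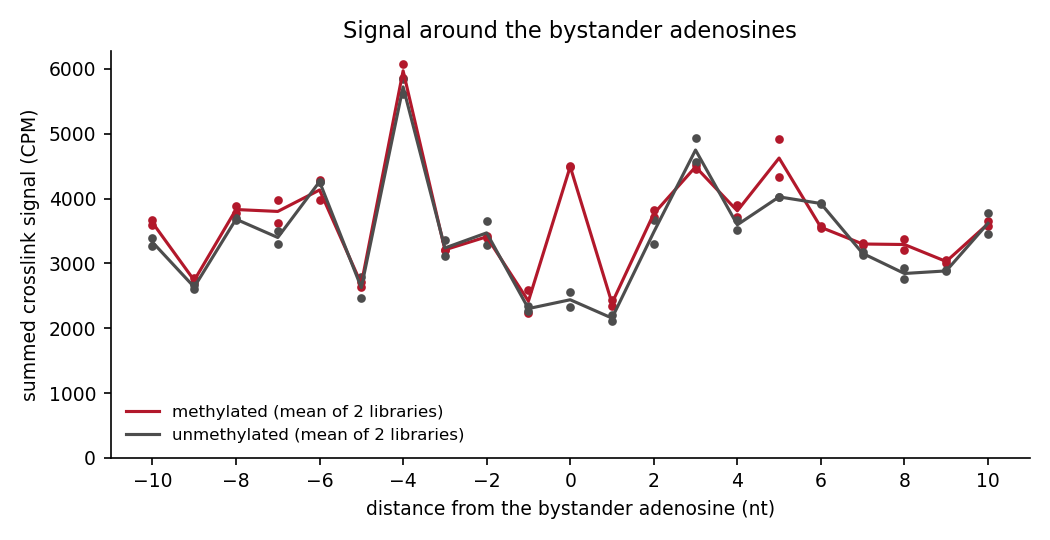
Summed signal in CPM (y axis, from 0) at each distance in nt from the bystander adenosine (x axis), as points for the 2 methylated and 2 unmethylated libraries and lines for the group means. The groups part at distance 0, with means of 4494 CPM in methylated and 2439 CPM in unmethylated libraries, and run close together on both sides.

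Site by site, 350 members had no count in any library and the median member had 9 counts over the 4 libraries together. Among the 1344 with a count, both methylated libraries lay above both unmethylated ones at 549 and below both at 70. Over all positions with a count, 18.3% lay above in this way and 16% below. The members that lay above both made up 40.8% of those with a count.

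A test with edgeR's quasi-likelihood method ran on every site that reached 10 counts in 2 or more libraries, with Benjamini-Hochberg adjustment over all of them and a threshold of 0.05. Of the members, 536 passed the minimum, 154 rose and 3 fell. Over all tested sites 3.7% rose and 2.01% fell. Of the 536, 21.3% passed only through the methylated libraries and so had to hold more raw counts there. The median log2 fold change of the 536 was 0.82, against -0.01 over all tested sites. Among the 312 members past the minimum in both unmethylated libraries, 69 rose and the median was 0.47. The share over all sites past that stricter minimum is not given here, so these values have no background beside them.

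The pooled ratio was highest with A at +2 and lowest with C. AGACA had 1314 and 1304 CPM in methylated libraries, against 617 and 601 CPM in unmethylated libraries, a ratio of 2.15. AGACU had 1346 and 1364 CPM in methylated libraries, against 636 and 778 CPM in unmethylated libraries, a ratio of 1.92. AGACC had 1829 and 1832 CPM in methylated libraries, against 1068 and 1179 CPM in unmethylated libraries, a ratio of 1.63. AGACC thus had the most signal in both groups and the smallest relative rise, and no motif's groups overlapped.

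Summed by 5-mer over all bystander positions and tested with edgeR's quasi-likelihood method over all 1024 5-mers, of which 6.74% rose and 8.3% fell, each of the 3 motifs rose. AGACA rose by a log2 fold change of 1.10 ± 0.09 (SE; edgeR adjusted p = 8.38e-15). AGACU rose by 0.94 ± 0.09 (edgeR adjusted p = 1.02e-11) and AGACC by 0.70 ± 0.09 (edgeR adjusted p = 1.91e-08). Among the 24 5-mers of the DRACN form, which adds G at +2 to the consensus, AGACA ranked 9, AGACU 12 and AGACC 16 by log2 fold change.

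The difference between AGACA and AGACC was 0.40 on the log2 scale, without overlap of the libraries (exact permutation p = 0.333, the smallest possible). Taken as each site's share of its own sequence's counts, with sites weighed equally, it was 0.29. Without the 10 sites of each motif with the most counts it was 0.15. AGACU lay 0.24 above AGACC. The motifs with A and U at +2 could not be told apart: their difference was 0.16, their libraries overlapped (exact permutation p = 0.667), and leaving out 1 library at a time gave -0.01 to 0.32. In all, 18 such differences between classes were computed. The smallest possible p of 0.333 was reached by 16 of them and became 0.375 after Benjamini-Hochberg adjustment, so none could pass a threshold of 0.05 and each is given by its size and by whether the libraries overlap.

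**Figure D2:**
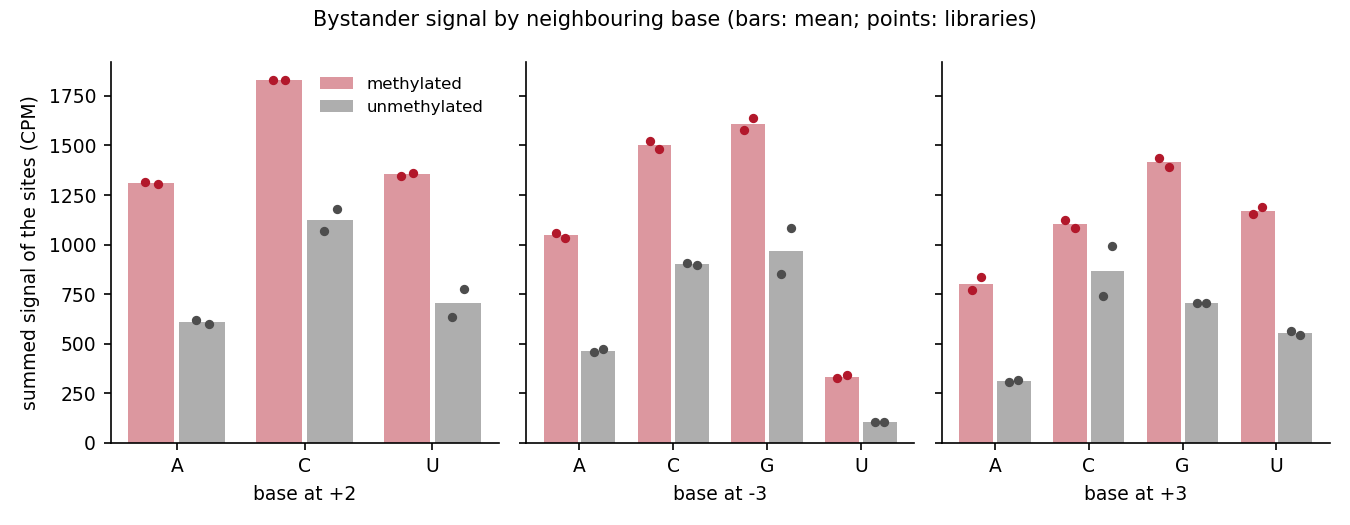
Summed signal of the bystander sites in CPM (y axis, from 0) by the base at +2, -3 and +3 (x axes), with bars for group means and points for the 2 libraries of each group. The ratio of methylated to unmethylated bars is smallest for C at +3, with 1103 CPM in methylated and 866 CPM in unmethylated libraries.

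C at +3, just outside the consensus, went with the smallest rise. Its 472 sites held 1124 and 1081 CPM in methylated libraries, against 741 and 991 CPM in unmethylated libraries, a ratio of 1.27. Sites with another base at +3 had ratios of 2.57 (A), 2.11 (U) and 2.01 (G). Against the other 3 bases, C at +3 lay 0.75 lower on the log2 scale, without overlap of the libraries. The gap was -0.60 with equal weight and -0.50 without the sites of most counts, so it kept its direction under both.

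The pooled ratio with C at +3 was low for each motif. It was 1.55 for AGACA, 1.26 for AGACU and 1.22 for AGACC when C followed, the lowest of the 4 bases in each, though the libraries of AGACC before C overlapped. With equal weight C stayed lowest in each motif, but without the sites of most counts AGACA before A, at 1.56, lay below AGACA before C, at 1.63. The highest were 3.53 for AGACA before U and 2.75 for AGACC before A, which were highest under both settings too. For AGACU the pooled value was highest before A, at 3.04, where the OPRL1 site described further on gave 89.7% of the counts of CAGACUA. With equal weight AGACU before U was higher, at 3.15, against 2.43 before A, and without the sites of most counts it was 2.01, against 1.91. Among tested members, 15.0% of those with C at +3 rose, against 37.6% with U, 33.3% with A and 30.7% with G. These shares lean on the count minimum, which 15.0% of the members with C passed only through the methylated libraries, against 20% with U, 29.5% with A and 22.3% with G. Among the members past it in both unmethylated libraries, 10.5% of 86 with C rose, against 32.4% of 74 with U, 20% of 55 with A and 25.8% of 97 with G. U at +3 lay 0.26 above the other bases (0.33 with equal weight and 0.30 without the sites of most counts). For A at +3 the pooled gap of 0.56 shrank to 0.11 and 0.05 under these settings, and for G at +3 a gap of 0.17 turned to -0.04 without the sites of most counts.

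At -3, before the motif, C had the lowest pooled ratio, 1.66, beside 1.67 for G, 2.25 for A and 3.19 for U. C at -3 lay 0.23 below the other bases on the log2 scale, and 0.49 and 0.42 below with equal weight and without the sites of most counts. For A at -3 the pooled gap of 0.36 shrank to 0.07 with equal weight (exact permutation p = 0.667) and to 0.21 without the sites of most counts. The value for U rested on few sites. Its 184 sites averaged 334 CPM in all in methylated libraries, of which the MZT2B site alone gave 161 CPM. Without the sites of most counts the ratio with U at -3 was 1.99. G at -3 changed side, at -0.22 pooled, 0.32 with equal weight and 0.08 without the sites of most counts.

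One base further out, A at -4 went with the largest rises, a feature chosen after the called sites had been seen and given without a test. A stood at -4 in 46.8% of the 154 members that rose, in 20.5% of the 371 tested members with no call and a base there, and in 29.5% of all members with a base there. The share among those that rose leans on the count minimum. Of tested members with A at -4, 29.1% passed it only through the methylated libraries, against 16.5% with C, 16% with G and 25.6% with U. The 488 sites with A at -4 held 1370 ± 25.6 CPM in methylated and 395 ± 9.76 CPM in unmethylated libraries (SD, n = 2 each), a ratio of 3.47. With another base at -4 the ratios lay between 1.41 (G) and 1.79 (C). With equal weight they were 2.90 for A and 1.56 to 1.77 for the others, and without the sites of most counts 2.67 for A and 1.55 to 1.76 for the others. In the sequences printed above, A stood at -4 in 7 of the 10 that rose, as in gaaagtagAGACAgtccatgg of ARGLU1, and in 1 of the 6 with no call.

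Split by the bases at both -3 and +3, the members form 48 7-mers, of which 47 could be tested among 15544. Of these 32 rose and none fell by edgeR's quasi-likelihood test, while 4.14% of all tested 7-mers rose and 2.63% fell. The median log2 fold change was 0.85, and 46 of the 47 lay above 0. With C at +3, 5 of 12 7-mers rose (median 0.42). With A it was 8 of 11 (0.89), with G 9 of 12 (0.89) and with U 10 of 12 (1.39). At an unadjusted p under 0.05 the number that fell was also 0, and it was 0 in all alternatives run on the 7-mers.

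The largest 7-mer change, UAGACUG, was 3.10 ± 0.17 on the log2 scale (SE; edgeR adjusted p = 1.02e-07). One site, in MZT2B, gave 91.7% of its counts, so this value is nearly that of 1 sequence. UAGACAA rose by 2.77 and UAGACAU by 2.44, with 18 and 12 sites and low signal. The 3 lowest were GAGACCC at 0.11, AAGACUA at 0.05 and UAGACCG at -0.26, none past the threshold. GAGACCC had 267 and 246 CPM in methylated libraries, against 177 and 296 CPM in unmethylated libraries, so its groups overlapped.

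**Figure D3:**
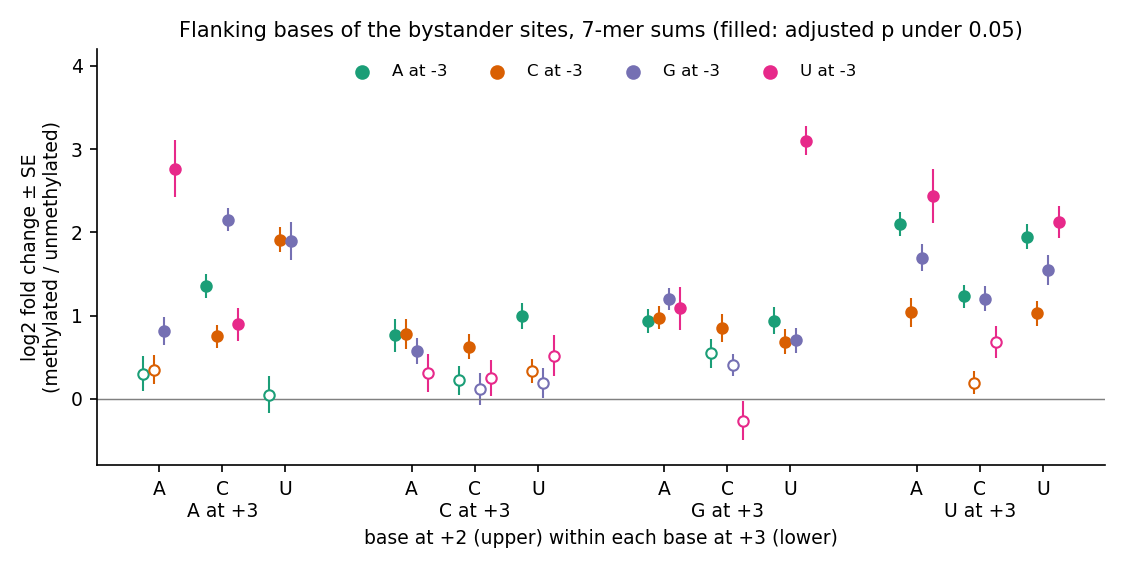
Log2 fold change ± SE of the 47 tested 7-mer sums (y axis), methylated over unmethylated, grouped along the x axis by the base at +3 and within it by the base at +2, with colour for the base at -3 and filled points for adjusted p under 0.05. The group with C at +3 lies lowest, with 5 of 12 filled, and the group with U at +3 highest, with 10 of 12 filled.

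Among sites with at least 10 unmethylated counts, the largest rise was at an AGACC. CLSTN3, which encodes a synaptic adhesion protein, had 527 and 405 counts in methylated libraries, against 11 and 10 in unmethylated libraries, at position 70 of its design. Its log2 fold change was 5.20 ± 0.37 (SE; edgeR adjusted p = 4.35e-09). All counts of that sequence together were 2.72-fold higher in methylated libraries, and against that total the site still rose by 3.79. URB1, a ribosome assembly factor, showed the rise without such a shift. Its site at position 98 had 1262 and 1689 counts in methylated libraries, against 61 and 90 in unmethylated libraries, while its whole sequence stood at a ratio of 0.779. The log2 fold change was 4.03 ± 0.31 (SE; edgeR adjusted p = 1.01e-08), and 4.42 against the sequence total. The design's selected adenosine was itself in AGACC. Of the 10 largest rises, 7 lay in sequences whose totals were 1.71-fold to 2.94-fold higher in methylated libraries. Against the sequence totals all 10 still passed the threshold, with changes of 2.56 to 4.42. In the fits that left out 1 library, 38 in all, log2 fold changes were 3.03 to 5.51. RUVBL2 passed the count minimum only through the methylated libraries, so it could not be fitted with either of them left out.

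In DFFA, the inhibitor of the caspase-activated DNase, the AGACC site had 604 and 687 counts in methylated libraries, against 47 and 55 in unmethylated libraries. In RUVBL2, an ATPase of chromatin remodelling complexes, it had 64 and 84 counts in methylated libraries, against 6 and 4 in unmethylated libraries. In GLRX5, a mitochondrial glutaredoxin, it had 7.02 and 8.74 CPM in methylated libraries, against 0.382 and 0.915 CPM in unmethylated libraries. These 3 sites carry A at -3, and their log2 fold changes were 3.40, 3.59 and 3.52. At the RUVBL2 site 2 of the 3 oligonucleotides of the sequence, which differ only in a tag, were higher in methylated libraries, and all 3 were at the other 9 of the 10.

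Among AGACA sites, MC1R, the melanocortin receptor of pigment cells, had 461 and 573 counts in methylated libraries, against 16 and 25 in unmethylated libraries. Its whole sequence was flat at a ratio of 1.02, and the log2 fold change of the site was 4.39 ± 0.34 (SE; edgeR adjusted p = 1.15e-08). ARGLU1, a modulator of splicing and transcription, had 378 and 497 counts in methylated libraries, against 12 and 33 in unmethylated libraries, for a log2 fold change of 4.02 (3.52 to 4.84 when 1 library was left out). Its whole sequence was 2.82-fold higher, and against that total the change was 2.57. The AGACA site with the highest signal among those called, LRFN1 at position 88 (a synaptic adhesion protein), had 1798 and 1746 counts in methylated libraries, against 335 and 390 in unmethylated libraries. Its log2 fold change, 2.03 ± 0.26 (SE; edgeR adjusted p = 1.69e-05), was smaller than that of MC1R, and its unmethylated level was 32.2 CPM, against 1.80 CPM for MC1R.

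The AGACU site with the highest called signal was MZT2B, a component of gamma-tubulin complexes, with 162 and 160 CPM in methylated libraries, against 10.6 and 14.8 CPM in unmethylated libraries (log2 fold change 3.63 ± 0.29, SE; edgeR adjusted p = 1.91e-08). XPC, a DNA damage sensor of nucleotide excision repair, had 273 and 222 counts in methylated libraries, against 11 and 7 in unmethylated libraries, and rose by 4.50, or by 3.0 against its sequence total, which was 2.94-fold higher. PACC1, a proton-activated chloride channel, had 7.93 and 8.82 CPM in methylated libraries, against 0.954 and 0.166 CPM in unmethylated libraries, and rose by 3.91 (3.12 to 5.51 when 1 library was left out). Its sequence total was 2.64-fold higher, and against it the change was 2.56.

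**Figure D4:**
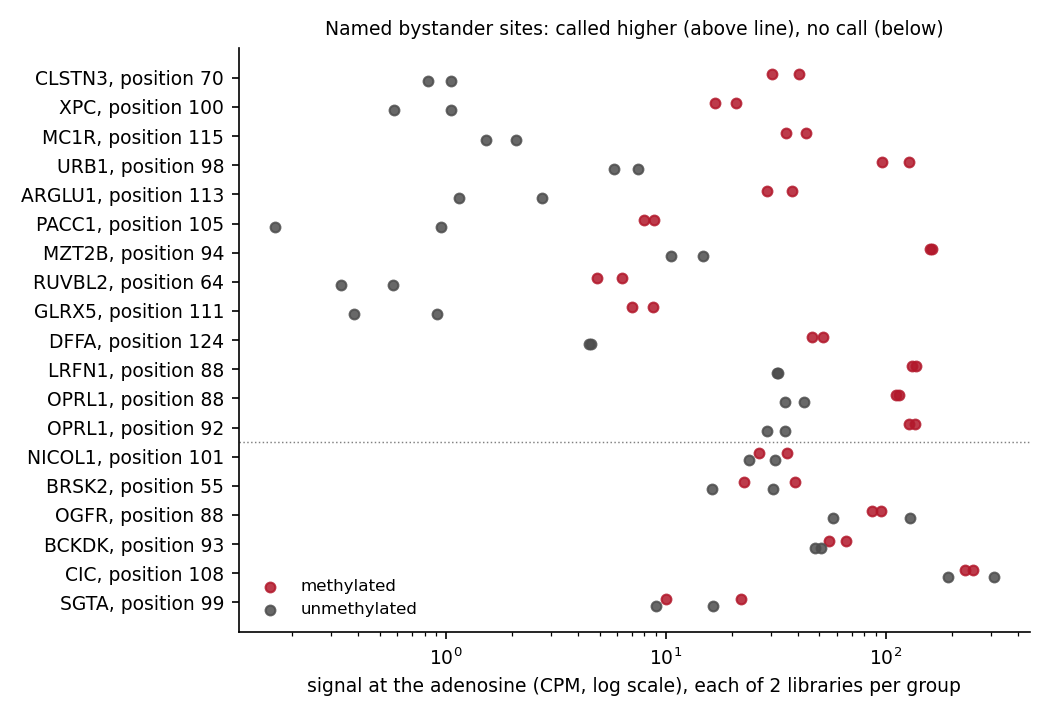
Signal at single bystander adenosines in CPM on a log axis (x axis), with 1 point for each of 2 methylated and 2 unmethylated libraries, for named sites (y axis, gene and position in the design). Above the dotted line the methylated points lie right of the unmethylated ones at every site, as for CLSTN3 with 35.4 CPM in methylated and 0.940 CPM in unmethylated libraries on average, and below it they overlap or nearly meet.

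A further 5 sites had 0 to 2 unmethylated counts in all. The AGACA site of MRFAP1L1 had 32 and 18 counts in methylated libraries and 0 in both unmethylated libraries, at least 7.09-fold higher against a floor of 3 counts per library. WDR33, a subunit of the mRNA polyadenylation machinery, had 20 and 10 counts in methylated libraries and 0 in both unmethylated libraries at its AGACU, at least 4.26-fold higher, with 2 of 3 oligonucleotides higher. With so few counts the size of these changes is poorly bounded. TBC1D9B, with 177 counts over both methylated libraries and 1 in each unmethylated library, had a count ratio of 75.5 with a 95% counting interval of 20.6 to 629. RIC8B, a chaperone of G protein alpha subunits, stood at 93 (16.4 to 3708) and the LOC124903759 site at 69.6 (19 to 579). These intervals cover counting error only.

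Neighbouring bystanders of 1 sequence moved together in OPRL1, the nociceptin receptor, whose AGACA at position 88 and AGACU at position 92 lie 4 nt apart. The first had 1461 and 1533 counts in methylated libraries, against 444 and 418 in unmethylated libraries. The second had 1672 and 1809 counts in methylated libraries, against 365 and 347 in unmethylated libraries. Both rose, by 1.53 and 2.02 on the log2 scale (edgeR adjusted p = 4.79e-04 and 1.90e-05), but the whole sequence was 2.46-fold higher too. Against the sequence total the change was 0.27 (edgeR adjusted p = 0.640) at the AGACA and 0.76 (edgeR adjusted p = 0.0350) at the AGACU. Against the sequence totals, 25% of the 536 tested members rose and 0 fell (3 at an unadjusted p under 0.05), while 1.8% of all tested sites rose and 0.403% fell, and 88.8% of those that rose were among the 154. Across the 536 tested members, the change of the whole sequence and that of the site went together (Spearman 0.49, a description in which both share their libraries and sequence).

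Strong signal did not always come with a rise. The AGACU site of CIC, a transcriptional repressor, had 3010 and 3324 counts in methylated libraries, against 2015 and 3732 in unmethylated libraries, the most counts of the 6 sites named for having no call. The AGACC site of OGFR, the opioid growth factor receptor, had 1251 and 1145 counts in methylated libraries, against 603 and 1559 in unmethylated libraries. In both, the unmethylated replicates differed from each other by more than the group means did, and log2 fold changes were -0.10 ± 0.27 and -0.08 ± 0.31 (SE). BCKDK, the kinase that restrains branched-chain amino acid breakdown, had 863 and 736 counts in methylated libraries, against 498 and 614 in unmethylated libraries at its AGACC (0.27 ± 0.26, SE; edgeR adjusted p = 0.648).

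SGTA, a co-chaperone, had 421 counts over both methylated libraries, against 280 over both unmethylated libraries, and its libraries overlapped (log2 fold change 0.33 ± 0.35, SE). These 4 sites, cccatcggAGACCccaggccc of OGFR among them, carry C at +3. The remaining 2, the AGACA sites of NICOL1 (468 and 351 counts in methylated libraries, against 250 and 378 in unmethylated libraries) and BRSK2, a neuronal kinase (508 and 302 counts in methylated libraries, against 321 and 195 in unmethylated libraries), carry G at +3. Members with a higher unmethylated level had smaller changes (Spearman -0.48 between unmethylated CPM and log2 fold change over the 536 tested sites, which share the unmethylated counts).

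The 3 members that fell did so with their whole sequence. DCLRE1C, the Artemis nuclease of V(D)J recombination, had 21 and 22 counts in methylated libraries, against 49 and 42 in unmethylated libraries at its AGACA (log2 fold change -1.34 ± 0.39, SE; edgeR adjusted p = 0.0439), with the whole sequence at a ratio of 0.427. That call was lost with library totals only (edgeR adjusted p = 0.0533), without a filter on low counts (edgeR adjusted p = 0.0758) and with DESeq2 (adjusted p = 0.152). MSL1, a scaffold of a histone acetyltransferase complex, had 61 and 56 counts in methylated libraries, against 96 and 140 in unmethylated libraries at its AGACU (-1.26 ± 0.32, SE; edgeR adjusted p = 0.0162), with a sequence ratio of 0.549. The third, an AGACC at position 69 of a design in 2 overlapping genes on chromosome 12, had 63 and 55 counts in methylated libraries, against 223 and 148 in unmethylated libraries, and was singled out after its values were seen. Against the sequence totals the 3 changes were -0.07, -0.34 and -0.43, none past the threshold (edgeR adjusted p = 0.967, 0.701 and 0.586).

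Set beside other bystander motifs in all sequences of the same 2 design classes, AGACH took a middle place. Bystander GGACH had the highest ratio, with 9778 CPM in methylated and 2728 CPM in unmethylated libraries, a ratio of 3.58, and GAACH had a ratio of 2.72. AGACH lay 0.96 below GGACH and 0.56 below GAACH on the log2 scale (-0.87 and -0.27 with equal weight). It lay 0.30 above UGACH, which had 2099 CPM in methylated and 1401 CPM in unmethylated libraries, and 0.18 above AAACH and UAACH as one set (ratio 1.63). The libraries did not overlap in any of these 4 differences, each at the smallest possible exact permutation p of 0.333. The set of AAACH and UAACH was mixed by the log2 fold change of its 5-mer sums. UAACA, at 1.25, lay above AGACA, at 1.10. UAACC, at 1.00, lay above AGACU, at 0.94, and AGACC, at 0.70. UAACU, at 0.61, lay below every AGACH motif. So did AAACC at 0.66, AAACU at 0.57 and AAACA at 0.56. The gap of 0.18 thus holds for the merged set, and UAACH alone was not compared with AGACH. AGACG, with G at +2 and so outside the consensus, had a ratio of 1.68, and AGACH lay 0.13 above it, or 0.02 with equal weight. By the log2 fold change of its 5-mer sum, AGACG, at 0.75, lay between AGACU, at 0.94, and AGACC, at 0.70.

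AGACH at the adenosines for which sequences had been selected had a smaller pooled ratio. The 627 selected AGACH sites had 1450 ± 81.1 CPM in methylated and 1063 ± 33.7 CPM in unmethylated libraries (SD, n = 2 each), a ratio of 1.36, and 41 of 210 tested rose. Bystander AGACH lay 0.44 above selected AGACH (0.38 with equal weight, 0.28 without the sites of most counts). By design class of the sequence, the pooled libraries overlapped. Bystanders in the m6A class had a ratio of 1.86 and those in the unmodified class 1.81, a log2 difference of 0.03 with overlapping libraries (exact permutation p = 0.667). With equal weight the difference was 0.08 and without the 10 sites of most counts in each class 0.39, both without overlap of the libraries (exact permutation p = 0.333, the smallest possible). Of tested members, 31.9% in the m6A class and 22.3% in the unmodified class rose.

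In 25 cases the same human adenosine was present in both roles, as a bystander in 1 design and as the selected adenosine of another, with matching coordinates. As bystanders these 25 held 56.1 ± 5.49 CPM in methylated and 12.4 ± 1.26 CPM in unmethylated libraries (SD, n = 2 each), a ratio of 4.54. As selected adenosines they held 34.4 ± 0.982 CPM in methylated and 9.28 ± 0.168 CPM in unmethylated libraries, a ratio of 3.71. Only 4 could be tested in both roles. The AGACA of NELFE, a subunit of the negative elongation factor, rose in both, by 1.72 as a bystander and 1.75 as the selected adenosine. One AGACU of GLRX5 rose in both, by 2.86 and 2.47. A second AGACU of GLRX5 rose by 2.23 as a bystander, with 0.61 and no call as the selected adenosine, and the AGACU of MRPL27, a mitochondrial ribosomal protein, by 3.03, with 1.17 and no call. Most counts of the 25 in both roles came from the NELFE site and the first GLRX5 site, so the pooled ratios rest mainly on these. Their own ratios were 3.34 and 7.47 as bystanders, and 3.46 and 5.67 as selected adenosines. Many of the 25 had few or no counts in either role. The ratio of the AGACA of TSC2 lay below 1 in both roles, at 0.92 as a bystander and 0.64 as the selected adenosine, on few counts. The differences between roles were not tested.

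The pooled ratio showed no order along predicted pairing. Sites with a predicted unpaired probability under 0.25, from 0.25 to 0.75 and over 0.75 had ratios of 1.88, 2.24 and 1.74, over 425, 407 and 862 sites. With equal weight they were 2.36, 2.13 and 1.83, and without the sites of most counts 1.90, 1.81 and 1.79. Under both settings the ratio thus fell as unpaired probability rose, which was not tested. Over the 536 tested members the Spearman correlation of unpaired probability with log2 fold change was -0.10. Sites with another DRACN adenosine within 5 nt had a ratio of 2.45, those with the nearest 6 to 20 nt away 1.88, and those further from any 1.63. With equal weight these became 1.81, 2.09 and 1.92, so the order did not hold. By position in the design, from the first 20 nt to the last 20 nt, ratios ran between 1.66 and 2.07.

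Library totals over the whole table were 13110615 and 13265092 counts in methylated libraries and 10483825 and 12028474 in unmethylated libraries. The members held 173630 counts in the 4 libraries together, and the 10 members with the most counts held 25.9% of them. Without those 10, the pooled ratio was 1.85. With sites weighted equally, each as a share of its sequence's counts, the ratio was 1.99. Between replicates, member counts differed by more than sampling noise, with chi-square over degrees of freedom of 4.41 in methylated and 5.44 in unmethylated libraries.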

How the data were processed

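The authors deposited raw counts per nucleotide, in 1 table with 141 positions for each oligonucleotide and library; FastQC 0.11.8, STAR 2.7.3a and bedtools 2.27.1 are named in the submitters' processing notes. Whether duplicates were removed, and on which genome build, is not given in the sources used here. Counts of oligonucleotides of one sequence were summed, and a site was 1 position of 1 sequence. Sites that reached 10 counts in 2 or more libraries (142938), 5-mer sums and 7-mer sums were tested with edgeR 4.0.16 (quasi-likelihood, trimmed mean of M values for sites, library totals for k-mers, no covariate) under R 4.3.3. P-values were adjusted by Benjamini and Hochberg's method and called under 0.05. Scripts were tested on simulated data. A standard error was the log2 fold change divided by the root of F. CPM used totals of the whole table, and classes were compared by log2 ratios per library with exact two-sided permutation tests. Equal weighting averaged over sites the share of its sequence's counts that each held, for sequences with at least 50 counts in every library.

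Gene names came from overlap with RefSeq genes of GRCh38.p14, in which 98.7% of loci lay; only loci in exactly 1 gene were named, and exon or intron was not assigned. Pairing was predicted with ViennaRNA 2.7.2 at 37 degrees. Summaries used Python 3.11.15, pandas 2.3.3, numpy 2.4.6, scipy 1.17.1 and matplotlib 3.10.9.

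The members and lists were chosen with earlier results of these data known. Sites outside chromosome 8 were named by a rule: the 10 largest rises with at least 10 unmethylated counts, the 5 largest rises, the 5 largest falls (2 qualified), and by motif the 2 called sites and the 2 sites with adjusted p over 0.5 of highest mean CPM, with methylated and unmethylated libraries apart for the called ones; of 7-mers, the 3 highest and 3 lowest. Same-numbered libraries did not deviate together over tested sites (correlation of their deviations -0.0764). Whether they shared a batch is not stated, and the main fit had no block. Alternatives were DESeq2 1.42.0, other scalings and count minimums, a sequence-total offset, single oligonucleotides, a replicate block, subsets of members and leaving out each library.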

Additional observations from a re-analysis of the deposited data

How the results depend on the processing

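Other depths, subsets of members and leaving out each library kept the pooled ratio between 1.75 and 1.94, and equal weighting of sites gave 1.99. Each alternative kept the rise of each 5-mer past the threshold wherever it was tested. Equal weighting gave log2 changes of 1.14 for AGACA and 0.85 for AGACC. The number of members that rose depended on the test. Over all tested sites, 3044 of 142938 rose with DESeq2, 3904 of 46922 with at least 50 counts and 7402 of 194723 with single oligonucleotides. Among members, 93 of 536 rose with DESeq2 (41 AGACA and 26 AGACC) and 92 of 204 with at least 50 counts (36 AGACA and 32 AGACC). With single oligonucleotides 215 of 785 members rose (61 AGACU). Of members past the minimum in both unmethylated libraries, chosen after seeing the data, 69 of 312 rose (25 AGACA, 25 AGACC and 19 AGACU). No share over all sites past that minimum is given beside it. Leaving out each library gave 51 to 150 in all, 16 to 65 for AGACA, 18 to 52 for AGACC and 16 to 40 for AGACU, with 61 and 51 without methylated replicates 1 and 2, when fewer members were tested (419 and 406); the number that fell was 0 to 7, and 0 against sequence totals. Over all tested sites, too, fewer rose in the fits without a methylated library than with all 4 libraries. With a replicate block 158 members rose and 4 fell, and 30 of 47 7-mers rose. Over all features with that block, 5608 of 142938 sites rose and 3028 fell, and 504 of 15544 7-mers rose. Whether libraries with the same replicate number shared a batch is not stated. AGACA lay -0.0063 from AGACU (log2) without unmethylated replicate 2; G at -3 turned to 0.083 without the sites of most counts and 0.32 with equal weight, and G at +3 to -0.037 without the sites of most counts. The causes were not tested. Falls of DCLRE1C and MSL1 lost the threshold in 3 of 4 fits that left out a library, and GAGACCC passed it, at 0.53, without unmethylated replicate 2. At a median of 9 counts per member over 4 libraries, most members could not be tested singly.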
